A study of Mus musculus with 15 samples.

Results

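This report concerns the type I interferon-stimulated genes of tumour-associated macrophages (TAMs), a set of 47 genes taken by gene symbol from a table of 55335 genes. All 47 were found, and all 47 passed the minimum mean of 1 FPKM (fragments per kilobase of transcript, scaled to the mapped fragments of the sample) that left 11419 genes to be tested. RNA-seq was done on TAMs that had been sorted from orthotopic hepatocellular carcinoma (HCC) in livers of C57BL/6 mice, with 15 samples in 3 groups of 5. In the control group the tumour cells were control cells, in the miR-144 group they overexpressed miR-144, and in the miR-451a group they overexpressed miR-451a. The study delivered both miRNAs by lentivirus, and it describes control lentivirus and luciferase-expressing tumour cells for its orthotopic tumours. The tumours grew from Hepa1-6 cells, a mouse hepatoma line, injected into the liver, and the macrophages themselves were not modified, so each comparison is between TAMs that had met different tumour cells. The comparisons ask what changes in TAMs when the tumour cells overexpress either miRNA. The age of the mice and whether each sample came from 1 animal or a pool are not given in the sources used here, so the p-values measure the spread between these samples. The legend of the study for this experiment states fewer replicates per group than the samples deposited, and how the deposited samples relate to them is not given, so n = 5 counts deposited samples.

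Type I interferons are cytokines that most cells can make when sensors detect foreign or misplaced nucleic acid. They bind the receptor formed by Ifnar1 and Ifnar2, the kinases Jak1 and Tyk2 are activated, and the transcription factor complex ISGF3, to which Irf9 belongs, forms and binds the interferon-stimulated response element (ISRE) in the promoters of its target genes. Many of the targets block steps of viral replication, and macrophages express them readily in infected tissue and in tumours.

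The sorted cells carried macrophage transcripts at high FPKM in every group, among them Lyz2 (mean 6894 in control, 13171 in miR-144 and 12581 in miR-451a TAMs) and Csf1r (401, 691 and 693). The summed FPKM of 6 T cell markers lay between 0.0401 and 0.271 in control, between 0.0657 and 0.398 in miR-144 and between 0.0592 and 0.490 in miR-451a TAMs, with Cd3e and Cd3g listed at 0 in all 15 samples and Lck above 0 in all 15. That of 6 hepatocyte or hepatoma markers lay between 0.136 and 0.253 in control, between 0.0753 and 0.232 in miR-144 and between 0.0995 and 0.226 in miR-451a TAMs, all of it from Afp, while the other 5 were listed at 0 throughout. The summed FPKM of 5 plasmacytoid dendritic cell markers, a cell type known for making interferon, lay between 0.393 and 0.975 in control, between 0.449 and 0.945 in miR-144 and between 0.303 and 0.797 in miR-451a TAMs. Most of that sum was Cox6a2 (0.680, 0.438 and 0.300), while Siglech, which encodes a surface receptor of these cells, had a mean of 0.0134 in control, 0.203 in miR-144 and 0.157 in miR-451a TAMs, too low to be tested but without overlap with control in either miRNA group.

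Other markers moved with the groups. The summed FPKM of 10 macrophage rows lay between 10254 and 11157 in control, between 18206 and 19793 in miR-144 and between 18052 and 18938 in miR-451a samples, and Lyz2 supplied most of it. Adgre1, Fcgr1 and C1qa of these rows lay above control without overlap. Their log2 fold changes were 1.39, 2.69 and 1.96 in miR-144 and 1.36, 2.64 and 2.07 in miR-451a TAMs. Cd68, another macrophage marker, fell below control without overlap, from a mean of 1444 to 919 and 910.4 (log2 fold change -0.65 ± 0.04 in miR-144 and -0.67 ± 0.04 in miR-451a TAMs, SE, n = 5 per group, limma adjusted p = 2.59e-09 and 1.85e-09). The summed FPKM of 4 fibroblast or stellate cell genes lay between 99.7 and 124, between 136 and 197 and between 172 and 217. The 4 Kupffer cell markers summed to values between 3.30 and 3.75 in control, between 17.0 and 49.9 in miR-144 and between 15.7 and 47.02 in miR-451a TAMs. Cd5l made up most of this sum, with a mean of 3.40 in control, 29.8 in miR-144 and 27.1 in miR-451a TAMs (log2 fold change 2.66 ± 0.34 in miR-144 and 2.54 ± 0.34 in miR-451a TAMs, SE, n = 5 per group, limma adjusted p = 4.88e-06 and 7.65e-06), whereas Clec4f was listed at 0 in every sample and Timd4 and Vsig4 stayed under 1 FPKM. Of the 4 monocyte markers, Chil3, also a gene of alternatively activated macrophages, had a mean of 4789 in control, 0.352 in miR-144 and 0.431 in miR-451a TAMs. Plac8 went the other way (3.05, 8.46 and 7.19), as did Ccr2 (0.161, 1.05 and 1.39), both without overlap, and Ly6c2 had means of 0.00617, 0.117 and 0.164. Cd22, known from B cells, had a mean of 9.17 in control, 3.64 in miR-144 and 3.72 in miR-451a TAMs (log2 fold change -1.12 ± 0.08 in miR-144 and -1.10 ± 0.08 in miR-451a TAMs, SE, n = 5 per group, limma adjusted p = 1.00e-08 and 1.22e-08). The summed FPKM of 4 endothelial markers lay between 3.70 and 4.29 in control, between 4.67 and 5.02 in miR-144 and between 4.65 and 5.93 in miR-451a TAMs. The NK cell marker Klrb1c stayed under 1 FPKM and was below control without overlap in both miRNA groups (0.319, 0.113 and 0.0721), and Ncr1 and Eomes were listed at 0 in every sample. The sum of 5 conventional dendritic cell markers lay between 0.281 and 0.420 in control, between 0.473 and 0.645 in miR-144 and between 0.401 and 0.747 in miR-451a TAMs, and that of 5 neutrophil markers overlapped between groups and reached at most 1.16 FPKM. The part of these shifts in the interferon-stimulated gene levels was not tested, and in bulk RNA fewer cells of a type cannot be told apart from less RNA per cell.

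The promoters of the members that the results turn on are shown here because promoters of interferon-stimulated genes are where ISGF3 is known to bind, although binding was not measured. The sequences are RefSeq windows on mouse build GRCm38.p6, 250 bases before to 50 bases after the annotated start, each read 5′ to 3′ on the strand of its gene. Capitals mark every match to the ISRE core GAAANNGAAA on either strand, so that a match on the other strand reads TTTCNNTTTC. Ifit3 (chr19:34583279-34583578, plus strand) and its neighbour Ifit3b (chr19:34607707-34608006, plus strand) had the largest changes, Isg15 (chr4:156200769-156201068, minus strand) is the ubiquitin-like modifier, Rsad2 (chr12:26456403-26456702, minus strand) encodes viperin, Oas1a (chr5:120907476-120907775, minus strand) represents the oligoadenylate synthetases, and Ifitm3 (chr7:141010695-141010994, minus strand) had the highest level of any member.
Ifit3: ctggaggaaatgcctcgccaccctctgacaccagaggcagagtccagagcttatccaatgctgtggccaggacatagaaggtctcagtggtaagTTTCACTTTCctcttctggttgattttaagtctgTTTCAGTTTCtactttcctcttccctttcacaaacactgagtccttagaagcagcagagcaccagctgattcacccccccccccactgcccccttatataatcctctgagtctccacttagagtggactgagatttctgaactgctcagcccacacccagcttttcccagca
Ifit3b: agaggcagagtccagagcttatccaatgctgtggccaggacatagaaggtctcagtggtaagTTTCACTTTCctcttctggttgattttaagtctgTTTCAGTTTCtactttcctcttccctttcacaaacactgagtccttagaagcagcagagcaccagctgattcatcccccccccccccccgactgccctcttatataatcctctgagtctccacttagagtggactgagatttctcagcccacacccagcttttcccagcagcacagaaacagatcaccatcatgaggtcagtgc
Isg15: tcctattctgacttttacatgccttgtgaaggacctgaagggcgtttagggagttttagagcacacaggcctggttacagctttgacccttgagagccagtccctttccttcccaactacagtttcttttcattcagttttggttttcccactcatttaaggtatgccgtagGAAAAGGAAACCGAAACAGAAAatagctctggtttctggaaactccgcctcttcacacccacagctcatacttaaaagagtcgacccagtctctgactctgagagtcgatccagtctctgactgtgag
Rsad2: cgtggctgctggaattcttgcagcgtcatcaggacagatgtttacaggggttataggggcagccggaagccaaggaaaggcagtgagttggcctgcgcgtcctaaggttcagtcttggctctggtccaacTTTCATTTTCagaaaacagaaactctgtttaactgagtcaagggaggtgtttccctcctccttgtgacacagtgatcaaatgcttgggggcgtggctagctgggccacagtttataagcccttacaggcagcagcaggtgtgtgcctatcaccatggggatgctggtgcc
Oas1a: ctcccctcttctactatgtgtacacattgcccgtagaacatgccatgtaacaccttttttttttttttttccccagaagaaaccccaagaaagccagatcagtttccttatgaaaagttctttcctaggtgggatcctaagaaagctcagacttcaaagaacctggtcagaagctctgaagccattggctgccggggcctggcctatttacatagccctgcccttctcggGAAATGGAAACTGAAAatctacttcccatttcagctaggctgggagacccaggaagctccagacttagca
Ifitm3: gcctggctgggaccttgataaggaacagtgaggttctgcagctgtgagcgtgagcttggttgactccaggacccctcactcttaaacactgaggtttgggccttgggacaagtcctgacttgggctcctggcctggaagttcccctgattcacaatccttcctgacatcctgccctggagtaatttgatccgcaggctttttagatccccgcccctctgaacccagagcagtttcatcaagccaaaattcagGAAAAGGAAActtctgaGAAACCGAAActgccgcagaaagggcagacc

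The Ifit3 and Ifit3b windows held the same pair of matches, at bases 95 to 104 and 129 to 138 of the first and at bases 63 to 72 and 97 to 106 of the second, with 24 bases between the matches in both. The longest run of bases that these 2 windows shared was 169 of 300. Ifit1, farther along the same cluster, held the same 2 decamers with 9 bases between them, while both windows listed for Ifit2 held 0 matches. In Isg15, 3 matches overlapped by 4 bases each, from base 173 to base 194. Rsad2 held 1 match and Oas1a 2 overlapping ones. In Ifitm3 both matches lay after the annotated start, at bases 253 to 262 and 270 to 279, and the second overlapped a match to the STAT element TTCNNNGAA. A promoter was found for 36 of the 47 members. Of these, 16 (44.4%) held the ISRE core, against 3.99% of the 27025 genes with a promoter and 4.06% of the 8097 of them that were tested. The STAT element was found in 8 of the 36 (22.2%), against 8.26% of tested genes. Among the 16 members with the ISRE core the median log2 fold change was 1.52 in miR-144 and 1.51 in miR-451a TAMs, and among the 20 without it 1.21 and 1.13, with ranges that overlapped (0.54 to 3.59 and 0.08 to 2.68 in miR-144 TAMs). A match is a description of the letters and not of binding.

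TAMs from both miRNA groups expressed the interferon-stimulated genes at higher levels than control TAMs. In miR-144 TAMs 46 of the 47 members were higher and 0 lower (limma, Benjamini-Hochberg adjusted p under 0.05), against 47.1% of all genes tested that were called higher and 20.1% that were called lower. In miR-451a TAMs 46 were higher and 0 lower, against 48.1% and 20.3% of all genes. Lgals3bp was the exception in both, and all 47 log2 differences were above 0 in each comparison. Most genes were called in one direction or the other (67.2% in miR-144 and 68.3% in miR-451a TAMs), so sizes are given beside the calls. With samples centred on their medians, 3512 genes were called higher and 3511 lower in miR-144 TAMs and 3577 and 3636 in miR-451a TAMs, while 45 members were called higher and 0 lower in each. At a log2 fold change of at least 1, 31 of 47 members passed in each comparison, against 4.62% of all genes in miR-144 and 4.93% in miR-451a TAMs. The median log2 fold change of the members was 1.25 in miR-144 TAMs and 1.17 in miR-451a TAMs, and that of all genes was 0.13 and 0.14. For 44 of 47 members in each comparison, all 5 miRNA samples lay above all 5 control samples, against 37.9% and 38.8% of all genes. Usp18, Nmi and Lgals3bp overlapped in both. All fold changes were taken after adding 1 to each FPKM value, so the change of a gene with low FPKM is understated. The 2 comparisons share their 5 control samples. The counts of each role group below are parts of the 46 members called and stand beside the same shares of all genes. The members were chosen with earlier results of these data known, so their contrast with all genes is a description only.

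**Figure D1:**
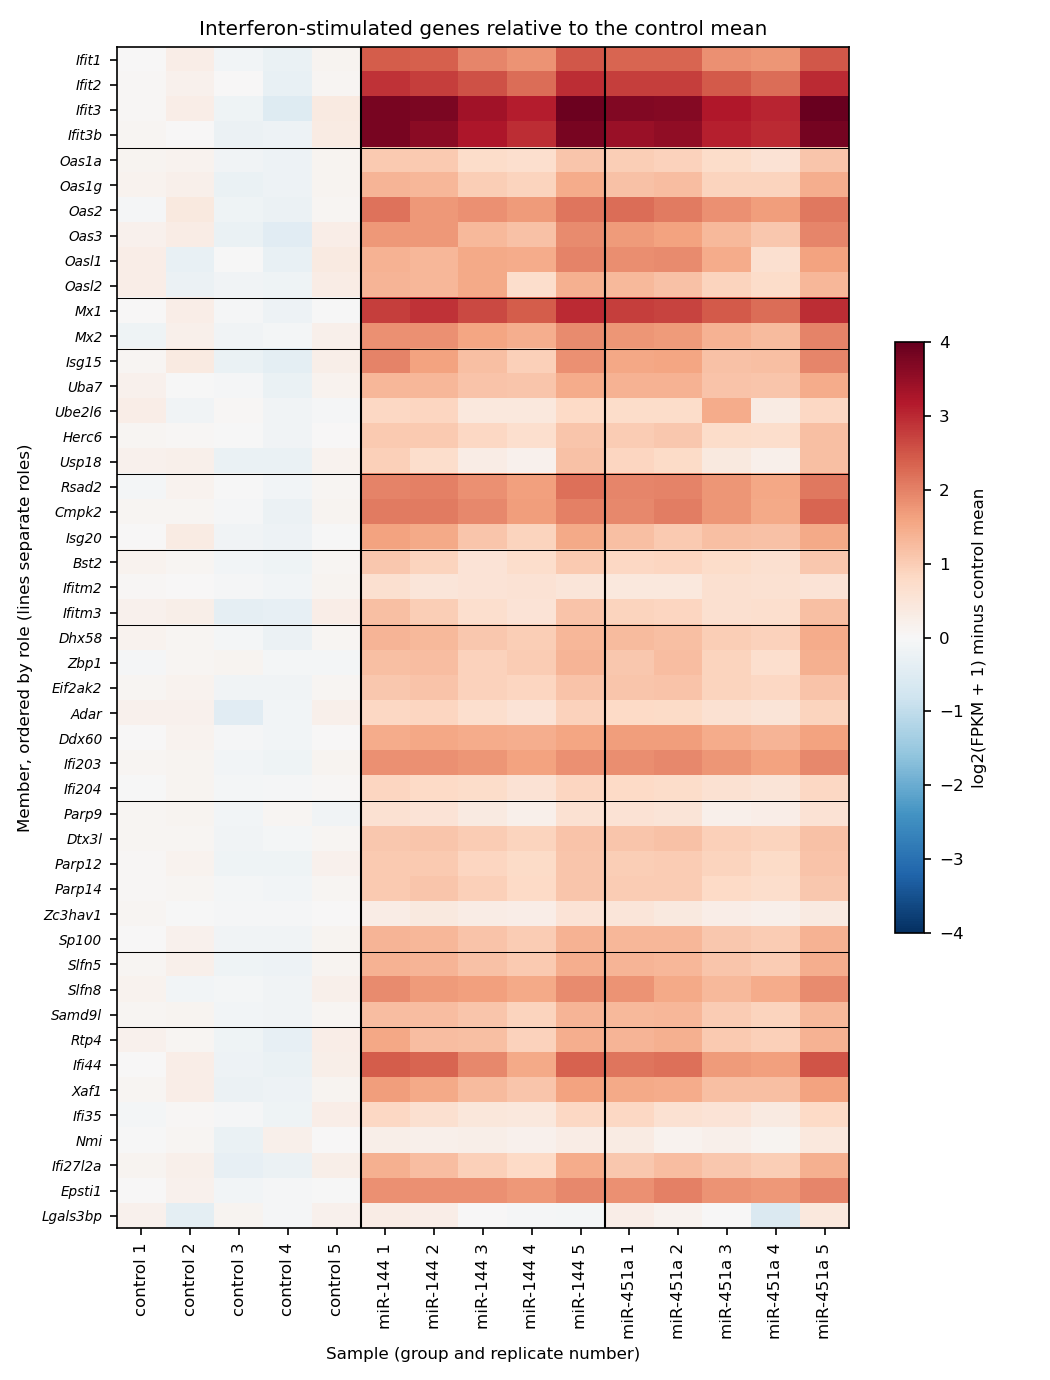
Each row is 1 of the 47 members, ordered by role, each column 1 of the 15 samples, and colour gives log2(FPKM + 1) minus the control mean (red higher, blue lower). Nearly every member is red in the 10 miRNA samples, deepest in Ifit3 and Ifit3b, and palest in Lgals3bp and Nmi, and for most members the columns of replicates 3 and 4 are paler or bluer than the rest of their group.

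Summed over the members, FPKM was 1559 to 2000.2 in control samples, 2890 to 3941 in miR-144 samples and 2879 to 3993 in miR-451a samples, which was 0.507 to 0.659%, 1.0 to 1.34% and 0.990 to 1.39% of all FPKM in the sample. The lowest miRNA sample therefore held more than the highest control sample. The median level of the members was 10.4 FPKM in control, 29.3 in miR-144 and 28.0 in miR-451a TAMs. Ifitm3, Ifitm2, Lgals3bp, Ifi27l2a and Bst2 were the 5 members with a mean over 100 FPKM in every group, and 10 members had a mean under 5 FPKM in control TAMs.

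The IFIT family, proteins that bind viral RNA and block its translation, had the largest changes of the 10 role groups. All 4 members were higher in both comparisons, with a median log2 fold change of 3.08 in miR-144 and 3.01 in miR-451a TAMs. The 4 genes lie within 99.3 kb on chromosome 19 (34550694 to 34650009, GENCODE M21 on GRCm38). Ifit3 FPKM was 7.03, 8.35, 5.88, 4.43 and 9.05 in control replicates 1 to 5, 107, 105, 77.8, 66.7 and 117 in miR-144 replicates 1 to 5 and 99.5, 96.9, 70.4, 63.5 and 119 in miR-451a replicates 1 to 5. The groups did not overlap, and the lowest miRNA sample was several times the highest control sample. The mean was 13.6 times that of control in miR-144 and 12.9 times in miR-451a TAMs (log2 fold change 3.59 ± 0.21 in miR-144 and 3.51 ± 0.21 in miR-451a TAMs, SE, n = 5 per group, limma adjusted p = 6.42e-10 and 7.88e-10). Ifit3b FPKM was 0.852, 0.766, 0.479, 0.517 and 1.18 in control, 23.1, 20.2, 15.4, 12.4 and 23.2 in miR-144 and 18.2, 19.1, 13.9, 12.8 and 24.0 in miR-451a samples. It was the member nearest to silence in control TAMs and had the largest ratio of means, 24.8 and 23.2 times control (log2 fold change 3.47 ± 0.19 in miR-144 and 3.39 ± 0.19 in miR-451a TAMs, SE, n = 5 per group, limma adjusted p = 2.94e-10 and 3.76e-10). Ifit3b averaged under 1 FPKM in control TAMs, so it passed the minimum mean of 1 FPKM through its miRNA samples. Of the 50-base stretches of the Ifit3 transcript 51.2% also occur in another gene, chiefly Ifit3b, and of those of Ifit3b 45.0%, so the division of reads between this pair is uncertain. Ifit2 rose by a log2 fold change of 2.68 and 2.63, and Ifit1 by 2.21 and 2.14.

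The Mx proteins are dynamin-like GTPases that trap viral nucleocapsids. Mx1 FPKM was 1.16, 1.54, 1.04, 0.849 and 1.13 in control, 13.5, 14.7, 12.2, 10.4 and 15.9 in miR-144 and 13.5, 12.9, 10.6, 9.06 and 15.5 in miR-451a samples. The highest control sample (1.54) was far below the lowest miRNA sample (9.06). The mean was 11.7 and 10.8 times control (log2 fold change 2.74 ± 0.13 in miR-144 and 2.62 ± 0.13 in miR-451a TAMs, SE, n = 5 per group, limma adjusted p = 8.40e-11 and 1.32e-10). Mx2 rose from a mean of 1.05 to 5.72 and 5.32 FPKM. C57BL/6 mice, like most laboratory strains, are known to carry a defective Mx1 gene, and the values here concern RNA only.

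The OAS family makes 2′-5′ oligoadenylates that switch on RNase L, apart from Oasl1, which lacks this activity and is known to act on Irf7 translation. All 6 members were higher in both comparisons, with a median log2 fold change of 1.40 in miR-144 and 1.31 in miR-451a TAMs. Oas1a was the most highly expressed, with FPKM of 45.5, 46.8, 38.0, 37.1 and 45.4 in control, 88.9, 88.8, 71.0, 67.4 and 92.7 in miR-144 and 84.8, 81.6, 71.2, 63.6 and 93.5 in miR-451a samples. Its groups did not overlap, but its change was the smallest of the family (log2 fold change 0.92 ± 0.11 in miR-144 and 0.87 ± 0.11 in miR-451a TAMs, SE, n = 5 per group, limma adjusted p = 4.15e-06 and 7.16e-06). Oas2 changed most, by 1.92 and 1.99. Oas1a shares 57.6% and Oas1g 54.7% of their 50-base stretches with other genes, chiefly each other, so their separate levels are uncertain. Oas1a, Oas1g, Oas2 and Oas3 lie within 177 kb on chromosome 5. Oasl1 varied most among miR-451a samples, where its highest FPKM was 2.55 times its lowest.

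Isg15 is a ubiquitin-like protein, Uba7 its activating enzyme, Ube2l6 its conjugating enzyme, Herc6 the ligase in mice and Usp18 the protease that removes it and restrains the receptor. All 5 were higher in both comparisons, with log2 fold changes from 0.66 to 1.52 in miR-144 and from 0.68 to 1.49 in miR-451a TAMs. Isg15 FPKM was 20.5, 24.9, 15.9, 14.4 and 22.8 in control, 78.9, 60.9, 46.0, 38.4 and 71.0 in miR-144 and 58.9, 58.9, 45.1, 45.7 and 77.1 in miR-451a samples. Its groups did not overlap (log2 fold change 1.52 ± 0.21 in miR-144 and 1.49 ± 0.21 in miR-451a TAMs, SE, n = 5 per group, limma adjusted p = 1.10e-05 and 1.23e-05). Usp18 overlapped, since the highest control sample (9.10 FPKM) exceeded the lowest miR-144 sample (8.75) and the lowest miR-451a sample (9.06) (log2 fold change 0.66 ± 0.21 in miR-144 and 0.68 ± 0.21 in miR-451a TAMs, SE, n = 5 per group, limma adjusted p = 0.0127 and 0.00984). Ube2l6 was 33.1 FPKM in miR-451a replicate 3 and at most 21.1 in any miR-144 sample. Of the Herc6 transcript 23.8% of 50-base stretches also occur in another gene.

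The enzymes Rsad2 (viperin, which makes a chain-terminating nucleotide), its neighbour Cmpk2 (a kinase that supplies Rsad2 with its substrate) and Isg20 (an exonuclease) were all higher in both comparisons, with a median log2 fold change of 1.93 in miR-144 and 1.87 in miR-451a TAMs. Rsad2 FPKM was 4.22, 5.13, 4.51, 4.16 and 4.82 in control, 20.9, 21.4, 18.6, 16.4 and 24.3 in miR-144 and 20.7, 21.0, 17.8, 15.2 and 22.9 in miR-451a samples. The control samples were close together, and the groups did not overlap (log2 fold change 1.93 ± 0.11 in miR-144 and 1.87 ± 0.11 in miR-451a TAMs, SE, n = 5 per group, limma adjusted p = 4.60e-10 and 6.31e-10). Cmpk2, in the same 37.1 kb of chromosome 12, had nearly equal changes of 1.96 and 1.92. Isg20 rose by 1.32 and 1.23, from a mean of 1.56 FPKM.

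The membrane proteins Bst2 (tetherin, which holds budding virions), Ifitm2 and Ifitm3 (which block fusion in endosomes) were among the 5 members over 100 FPKM and changed by under 1 on the log2 scale. Ifitm3 FPKM was 527, 542, 364, 369 and 557 in control, 1079, 919.6, 744, 677 and 1032 in miR-144 and 851, 849.6, 718, 734 and 1066 in miR-451a samples. Its groups did not overlap (log2 fold change 0.92 ± 0.16 in miR-144 and 0.85 ± 0.16 in miR-451a TAMs, SE, n = 5 per group, limma adjusted p = 0.000141 and 0.000271). The rise in its mean, 472 to 890.4 and 844 FPKM, was far larger in absolute terms than that of Ifit3. Ifitm2 rose least, by 0.54 and 0.53, and shares 48.5% of its 50-base stretches with another gene. Bst2 rose by 0.86 and 0.82.

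**Figure D2:**
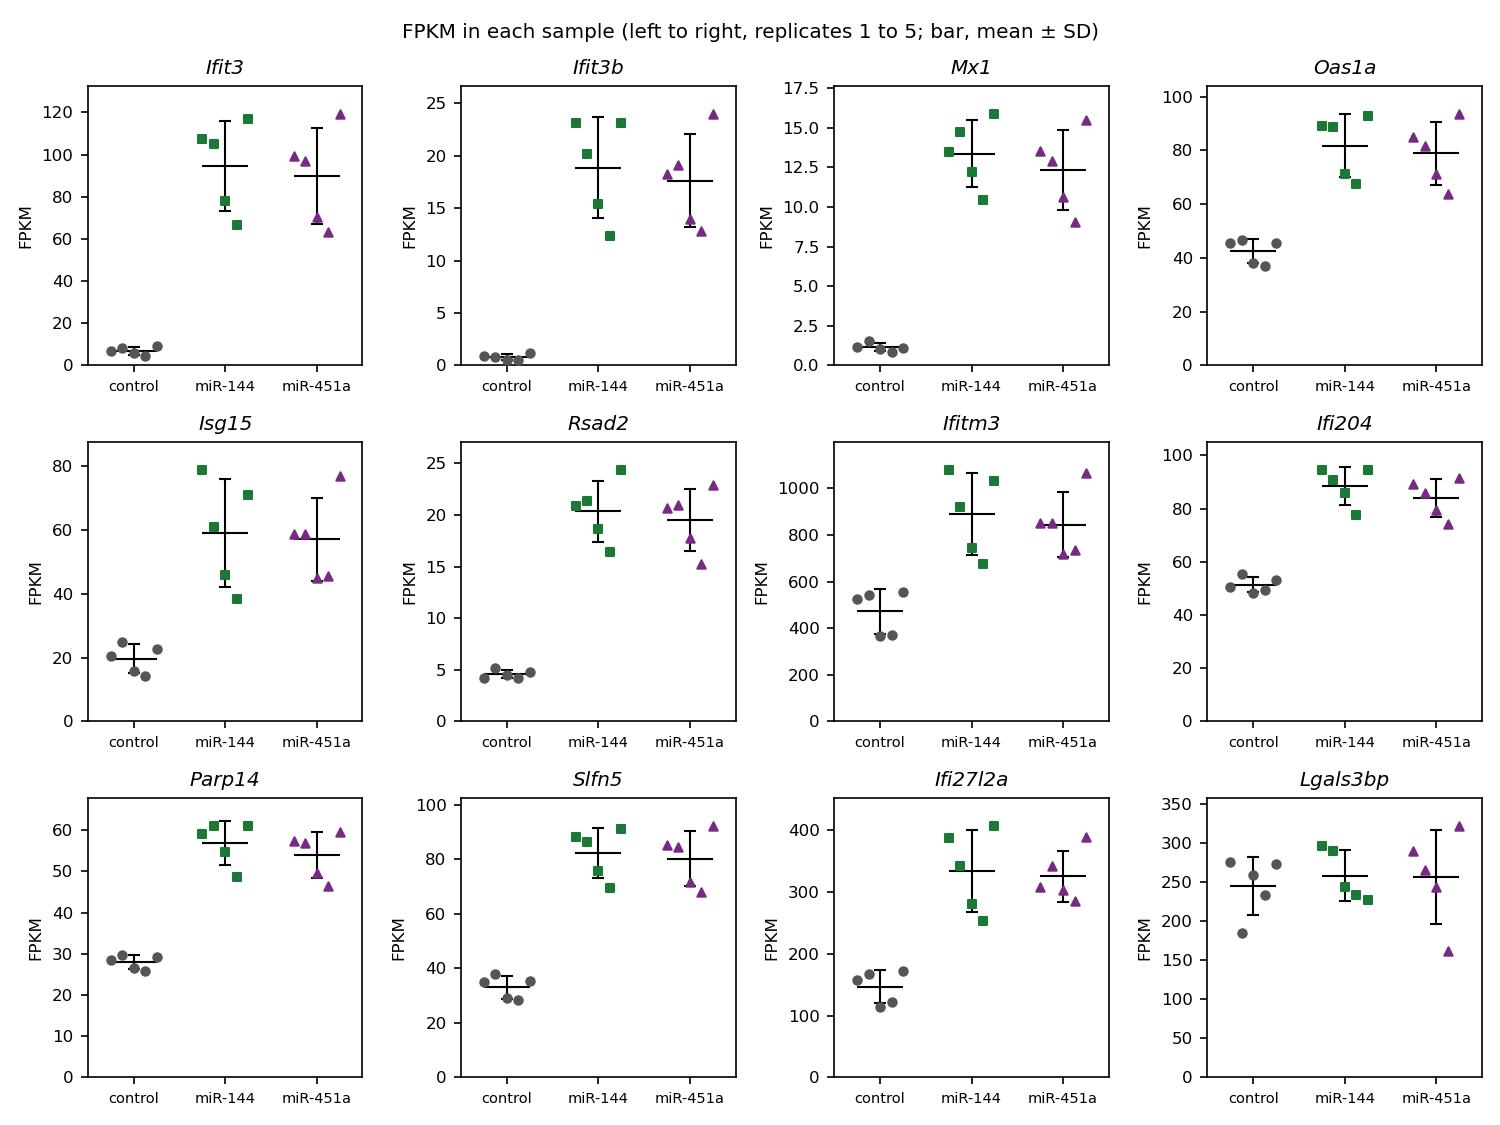
FPKM of 12 members in each sample, with a linear axis from 0 in each panel, points for the 5 samples of a group in order of replicate number, and bars for the mean and SD. The miRNA groups lie above control without overlap in 11 panels, Ifit3b goes from a mean of 0.759 to 18.8 and 17.6, and the 3 groups of Lgals3bp overlap.

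Proteins that bind or sense nucleic acid made up 7 members, all higher in both comparisons. Ifi203 (1.77 and 1.81), a member of the PYHIN family, and Ddx60 (1.52 and 1.56), an RNA helicase, changed most, and Dhx58, an RNA helicase related to RIG-I, Zbp1, a sensor of Z-form nucleic acid, Eif2ak2, the kinase PKR, and Adar, the RNA-editing enzyme, changed by 1.21, 1.15, 1.02 and 0.76 in miR-144 TAMs. Ifi204, a PYHIN protein related to human IFI16, had the highest level. Its FPKM was 50.5, 55.6, 48.3, 49.5 and 53.2 in control, 94.5, 90.8, 85.8, 77.6 and 94.5 in miR-144 and 89.2, 85.9, 79.5, 74.2 and 91.6 in miR-451a samples. The groups did not overlap (log2 fold change 0.77 ± 0.07 in miR-144 and 0.70 ± 0.07 in miR-451a TAMs, SE, n = 5 per group, limma adjusted p = 5.86e-08 and 1.86e-07), and 30.2% of its 50-base stretches occur in another gene, chiefly Ifi211.

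The PARP proteins here are Parp9, Parp12, Parp14 and Zc3hav1 (ZAP, which degrades CpG-rich RNA). They, the Parp9 partner Dtx3l and the nuclear body protein Sp100 were all higher in both comparisons, against 47.1% and 48.1% of all genes. Parp14 FPKM was 28.6, 29.6, 26.5, 25.9 and 29.3 in control, 59.0, 61.1, 54.8, 48.7 and 61.0 in miR-144 and 57.4, 56.9, 49.7, 46.4 and 59.5 in miR-451a samples. Its groups did not overlap (log2 fold change 0.996 ± 0.08 in miR-144 and 0.92 ± 0.08 in miR-451a TAMs, SE, n = 5 per group, limma adjusted p = 1.59e-08 and 3.82e-08). Parp9 and Dtx3l overlap on opposite strands of chromosome 16 and changed unequally, by 0.47 and 1.05 in miR-144 TAMs. Whether reads were counted by strand is not given in the sources used here, so reads in the overlap cannot be told apart. Zc3hav1 changed least of the group, by 0.36 and 0.34.

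The Schlafen proteins Slfn5 and Slfn8 and the antiviral protein Samd9l were all higher, with log2 fold changes from 1.16 to 1.73 in miR-144 and from 1.17 to 1.60 in miR-451a TAMs. Slfn5 FPKM was 34.9, 37.9, 29.0, 28.3 and 35.3 in control, 88.3, 86.4, 75.8, 69.6 and 91.1 in miR-144 and 85.1, 84.3, 71.5, 67.9 and 92.2 in miR-451a samples. Its groups did not overlap (log2 fold change 1.29 ± 0.10 in miR-144 and 1.25 ± 0.10 in miR-451a TAMs, SE, n = 5 per group, limma adjusted p = 3.01e-08 and 4.03e-08).

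Of the 8 remaining members 7 were higher in both comparisons. Ifi44 (2.11 and 2.04) and Epsti1 (1.83 and 1.87) led, and Epsti1 had one of the smallest spreads of any member (SE 0.06). Ifi27l2a, a small mitochondrial protein gene, had the highest level among those that rose. Its FPKM was 157, 167, 114, 121 and 171 in control, 386, 341, 280.2, 253 and 406 in miR-144 and 307, 342, 302, 285 and 388 in miR-451a samples. The groups did not overlap (log2 fold change 1.18 ± 0.15 in miR-144 and 1.16 ± 0.15 in miR-451a TAMs, SE, n = 5 per group, limma adjusted p = 4.15e-06 and 4.84e-06). Xaf1, Rtp4 and Ifi35 rose by 1.43, 1.27 and 0.63 in miR-144 TAMs. Nmi, a partner of Ifi35, moved by 0.23 and 0.24 (limma adjusted p = 0.0160 and 0.0111), the smallest change called among members, and was no longer called once samples were centred on their medians. Lgals3bp, a secreted glycoprotein, had FPKM of 275, 184, 259, 233 and 272 in control, 296, 289, 244, 234 and 227 in miR-144 and 289, 265, 243, 161 and 321 in miR-451a samples. Its log2 differences of 0.08 (95% interval -0.26 to 0.43) and 0.04 (-0.30 to 0.39) did not pass the test (limma adjusted p = 0.670 and 0.824), and they turned negative when samples were centred on their medians (-0.05 and -0.10).

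**Figure D3:**
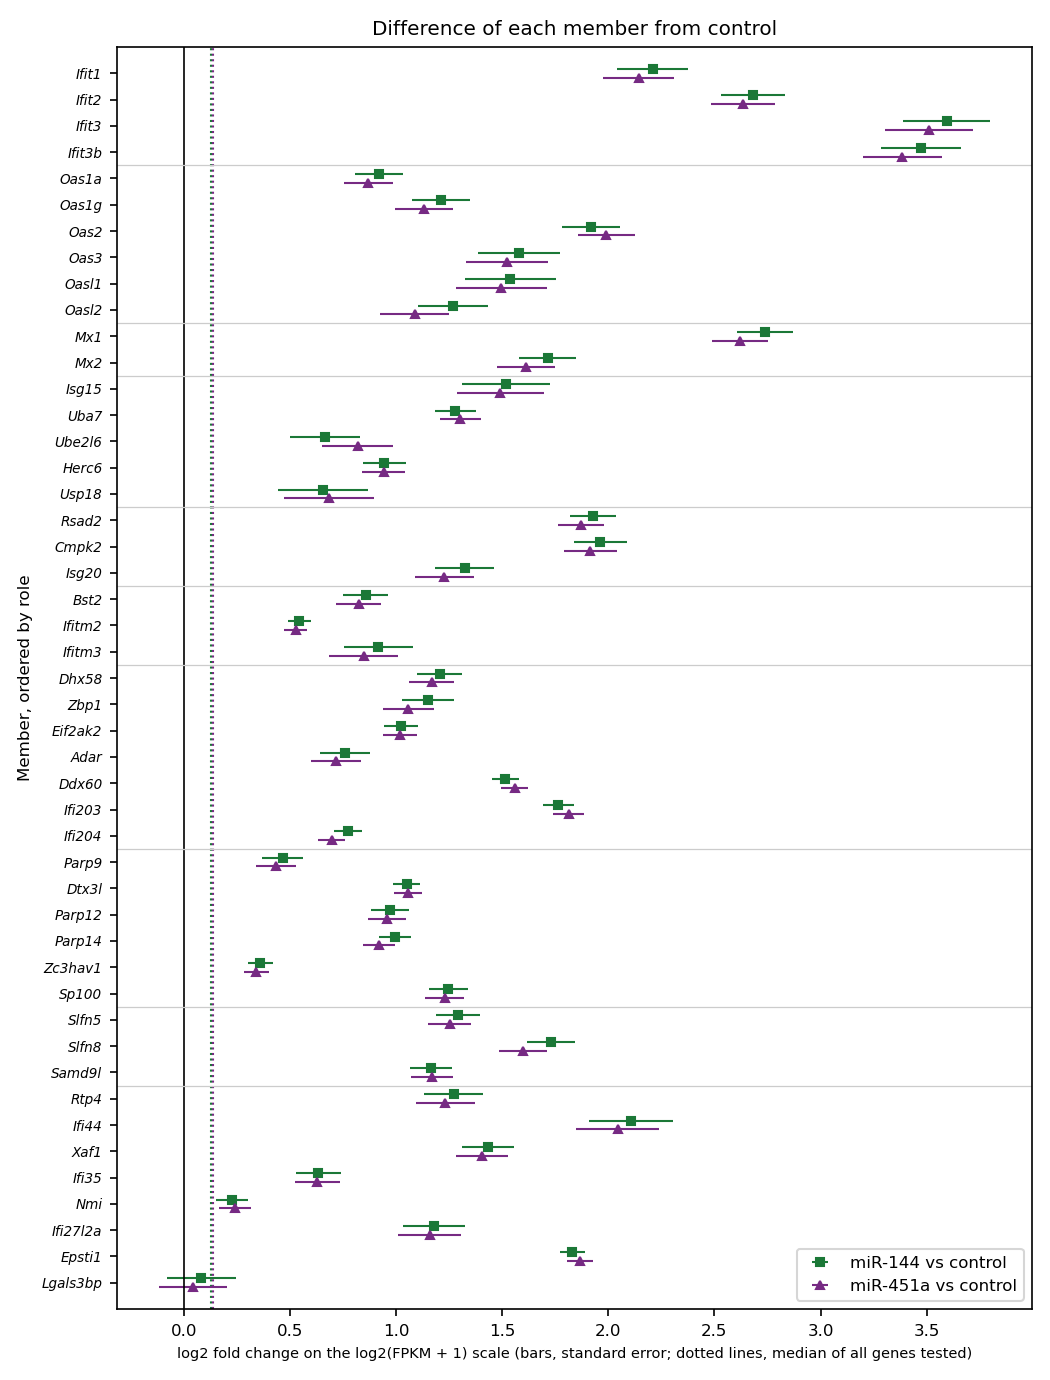
Points give the log2 fold change of each of the 47 members on the log2(FPKM + 1) scale, green squares for miR-144 and purple triangles for miR-451a against control, with bars of 1 standard error and dotted lines at the median of all 11419 genes tested (0.13 and 0.14). The bars of the 2 comparisons overlap for every member, and Lgals3bp is the member left of both dotted lines.

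Between the 2 miRNA groups no member was called (limma adjusted p under 0.05, 0 of 47), against 0.0% of all genes, and 0 of 47 reached an unadjusted p under 0.05, the smallest being 0.261, where 596 of all 11419 genes did. The largest log2 difference of miR-451a minus miR-144 was -0.18 for Oasl2 (95% interval -0.53 to 0.17) and the largest in the other direction 0.15 for Ube2l6 (-0.20 to 0.51). The 95% intervals of all 47 lay between -0.53 and 0.51. By value, 37 members were lower and 10 higher in miR-451a than in miR-144 TAMs, with a median difference of -0.04. No member had its 2 miRNA groups free of overlap, against 0.552% and 0.298% of all genes above and below.

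The other genes of the interferon pathway were taken from 7 lists with 117 genes, of which 87 were tested. In miR-144 TAMs 73 were higher and 6 lower, and in miR-451a TAMs 70 were higher and 5 lower, with median log2 fold changes of 0.77 and 0.76. Of all genes tested, 47.1% were higher and 20.1% lower in miR-144 TAMs, and 48.1% and 20.3% in miR-451a TAMs. Genes of these lists other than ligands, receptors, JAKs, STATs, IRFs and sensors were picked out after their values were seen. The lists were chosen with earlier results of these data known, so their contrast with all genes is a description only. Among the 21 interferon ligand genes, none was tested and none exceeded the level of 3 fragments in any sample. Ifnb1, the gene of interferon beta, was listed at 0 in all 5 control samples and in 9 of all 15, and its highest value was 0.171 FPKM in miR-144 replicate 4, below the level that 3 fragments give. Ifng was listed at 0 in all 15 samples. Ifnb1 was above 0 in 6 of the 10 miRNA samples, so low transcript levels of the ligands could not be measured at this approximate depth, and their absence is not shown. RNA of the tumour cells and of other cells of the tumours was not analysed here.

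Downstream of the ligands, genes of the receptor, the JAKs, Stat2 and Irf9 were higher in both comparisons, apart from Jak1 in miR-451a TAMs. Jak1 moved by 0.08 and 0.06, less than the median of all genes, and missed the threshold in the second (limma adjusted p = 0.0251 and 0.0657). Ifnar2 FPKM was 22.8, 23.1, 23.5, 23.0 and 23.5 in control, 36.9, 37.9, 41.6, 42.4 and 37.7 in miR-144 and 38.3, 39.2, 42.9, 42.2 and 37.8 in miR-451a samples. The receptor chain was tightly grouped in control TAMs, and its mean was 1.70 and 1.73 times that of control in the miRNA groups (log2 fold change 0.74 ± 0.04 in miR-144 and 0.76 ± 0.04 in miR-451a TAMs, SE, n = 5 per group, limma adjusted p = 1.14e-09 and 6.99e-10). Ifnar1 rose by 0.47 and 0.53 and Tyk2 by 0.29 and 0.33. Stat2 rose by 0.82 and 0.76 and Irf9 by 0.72 and 0.74.

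Among 8 IRFs and kinases of interferon induction, 5 were higher in miR-144 and 4 in miR-451a TAMs and 0 lower, numbers near the 47.1% and 48.1% of all genes that were called higher. Irf7, which amplifies interferon production and is itself a target of ISGF3, led. Its FPKM was 9.13, 9.39, 6.41, 5.04 and 9.29 in control, 40.6, 39.4, 29.3, 27.1 and 45.1 in miR-144 and 41.1, 36.9, 32.5, 27.2 and 46.6 in miR-451a samples, with no overlap (log2 fold change 2.08 ± 0.19 in miR-144 and 2.11 ± 0.19 in miR-451a TAMs, SE, n = 5 per group, limma adjusted p = 1.06e-07 and 8.78e-08). Irf3, which is present before stimulation, rose by 0.32 and 0.25, and Irf8 by 0.67 and 0.68 with overlapping groups. Irf1, Irf2 and Irf5 were not called. Tbk1 was called in miR-144 TAMs alone (0.25 and 0.13, limma adjusted p = 0.00368 and 0.103), and its 2 miRNA groups were not called different.

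Of 12 nucleic acid sensors and adaptors, 9 were higher and 1 lower in both comparisons, against 47.1% and 48.1% of all genes higher and 20.1% and 20.3% lower. Tlr9, the endosomal DNA sensor, had FPKM of 5.93, 5.11, 4.68, 4.22 and 5.51 in control, 40.8, 44.4, 40.6, 40.0 and 42.6 in miR-144 and 41.4, 41.5, 38.5, 37.5 and 46.8 in miR-451a samples, with no overlap (log2 fold change 2.81 ± 0.07 in miR-144 and 2.79 ± 0.07 in miR-451a TAMs, SE, n = 5 per group, limma adjusted p = 6.72e-14 and 6.94e-14). Tlr7, the endosomal RNA sensor, rose by 1.58 in both comparisons (limma adjusted p = 0.00351 and 0.00336) but varied widely within groups, from 14.7 to 44.1 FPKM in control, 49.7 to 124 in miR-144 and 46.3 to 130.4 in miR-451a samples. The cytosolic RNA sensors Ddx58 (RIG-I) and Ifih1 (MDA5) rose by 1.37 and 0.89 in miR-144 and by 1.40 and 0.87 in miR-451a TAMs, and their adaptor Mavs by 0.42 in both. Mb21d1 (cGAS) and Tmem173 (STING) rose by 0.33 and 0.30 in miR-144 and by 0.49 and 0.45 in miR-451a TAMs. Ticam1 (TRIF), the adaptor of Tlr3, fell by 0.72 and 0.68 on the log2 scale, while Tlr3 itself rose by 0.66 and 0.65. Tlr8 and Trim25 were not called.

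**Figure D4:**
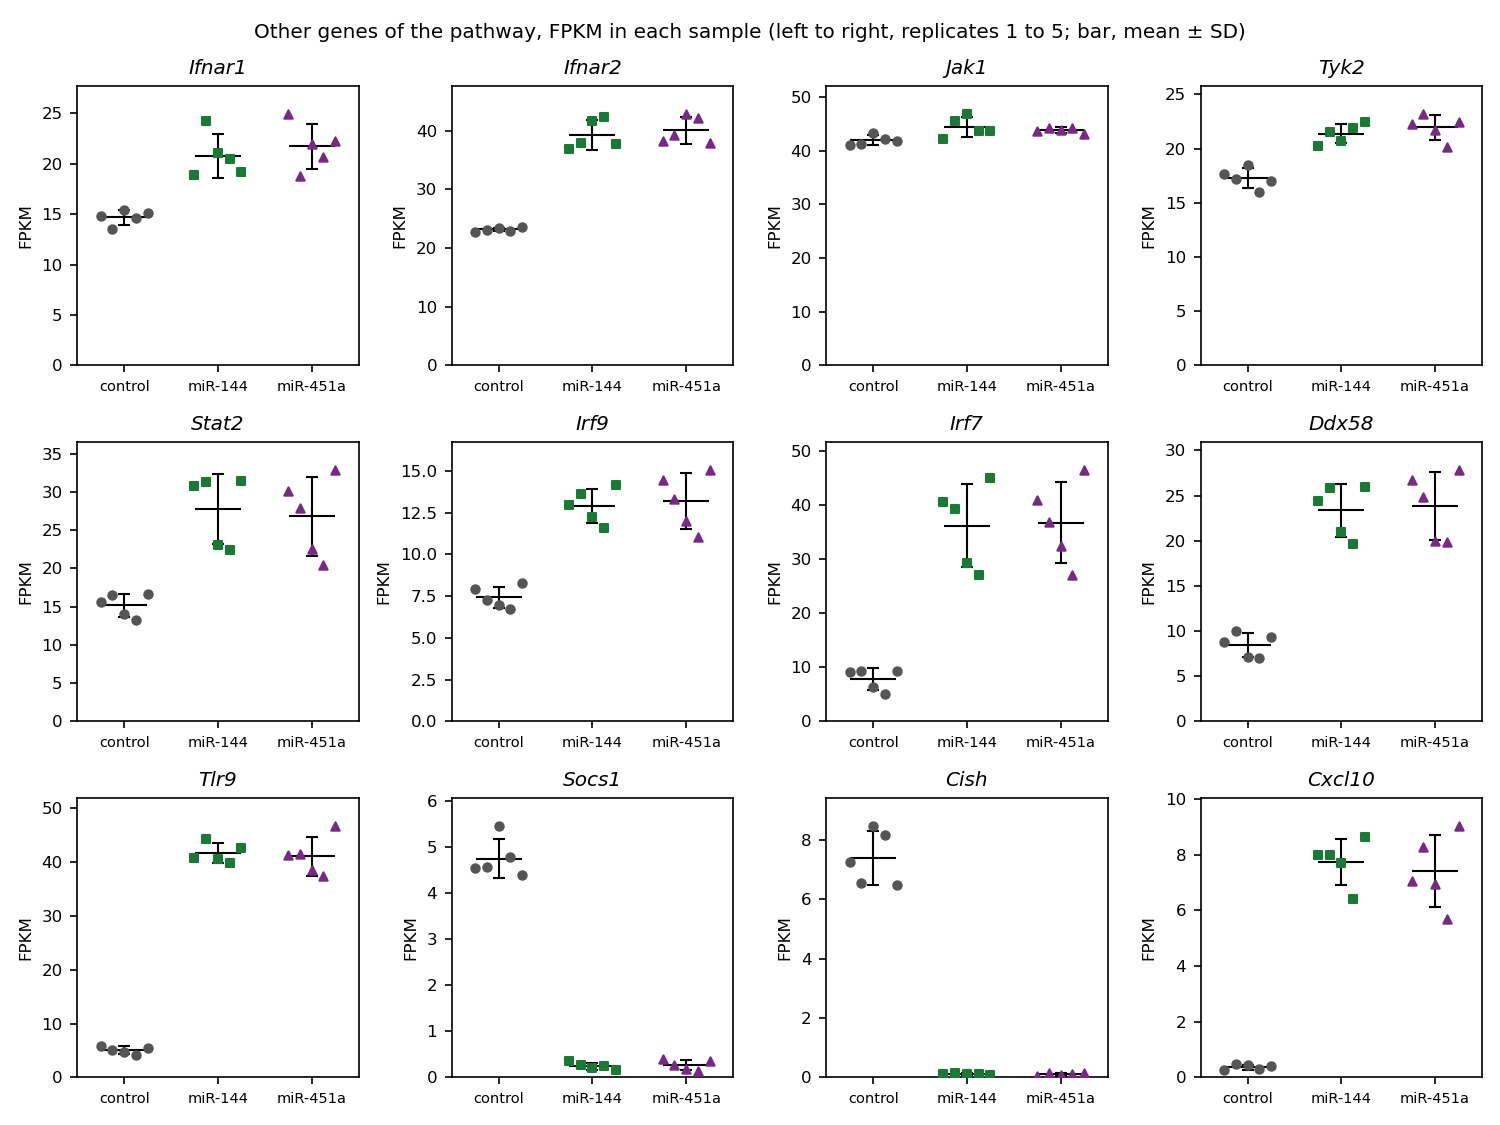
FPKM of 12 genes of the pathway in each sample, with a linear axis from 0 in each panel, points in order of replicate number, and bars for the mean and SD. The receptor genes, Stat2, Irf9, Irf7, Ddx58, Tlr9 and Cxcl10 lie higher in the miRNA groups, Jak1 is nearly level, and Socs1 and Cish go from means of 4.75 and 7.38 to 0.243 and 0.120 in miR-144 TAMs.

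Of 13 tested inhibitors of interferon signalling, 9 were higher and 4 lower in miR-144 TAMs (47.1% and 20.1% of all genes) and 8 higher and 3 lower in miR-451a TAMs (48.1% and 20.3% of all genes). Socs1, a SOCS protein which inhibits Jak1 and Tyk2, had FPKM of 4.54, 4.56, 5.45, 4.79 and 4.39 in control, 0.347, 0.262, 0.195, 0.255 and 0.155 in miR-144 and 0.397, 0.260, 0.178, 0.147 and 0.352 in miR-451a samples. The highest miRNA sample (0.397) was far below the lowest control sample (4.39) (log2 fold change -2.21 ± 0.07 in miR-144 and -2.18 ± 0.07 in miR-451a TAMs, SE, n = 5 per group, limma adjusted p = 4.15e-13 and 4.20e-13). Cish, a SOCS protein that restrains cytokine signalling through STATs, had FPKM of 7.26, 6.54, 8.46, 8.15 and 6.49 in control, 0.120, 0.162, 0.127, 0.121 and 0.0700 in miR-144 and 0.0376, 0.153, 0.0951, 0.116 and 0.132 in miR-451a samples, also without overlap (log2 fold change -2.90 ± 0.06 in miR-144 and -2.92 ± 0.06 in miR-451a TAMs, SE, n = 5 per group, limma adjusted p = 1.37e-14 and 1.23e-14). Its value in miR-451a replicate 1 lay below the level of 3 fragments. Socs1 and Cish passed the minimum mean of 1 FPKM through their control samples. Socs1 is known as an interferon-induced gene, and its direction here was opposite to that of the 46 members called. The inhibitors Socs3 (0.83 and 0.92) and the phosphatase Ptpn6 (1.20 and 1.20) rose.

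Of 16 tested interferon-gamma GTPases and chemokines, 14 were higher and 0 lower in each comparison (47.1% and 48.1% of all genes were higher), with median log2 fold changes of 1.02 and 1.03, and Gbp2 and Ciita were the 2 not called. Cxcl10, a chemokine that attracts activated T cells, had FPKM of 0.262, 0.469, 0.435, 0.290 and 0.400 in control, 7.97, 7.98, 7.71, 6.41 and 8.64 in miR-144 and 7.05, 8.27, 6.95, 5.67 and 9.03 in miR-451a samples, with no overlap (log2 fold change 2.67 ± 0.10 in miR-144 and 2.60 ± 0.10 in miR-451a TAMs, SE, n = 5 per group, limma adjusted p = 2.99e-12 and 3.75e-12). Cxcl10 passed the minimum mean of 1 FPKM through its miRNA samples. In the list of 31 other tested interferon-responsive genes 29 were higher in each comparison, against the same shares of all genes, with medians of 0.90 and 0.92. Ifi30, a lysosomal thiol reductase that the list also holds, was the 1 gene lower, from a mean of 211 to 74.0 and 75.9 FPKM (log2 fold change -1.50 ± 0.05 in miR-144 and -1.46 ± 0.05 in miR-451a TAMs, SE, n = 5 per group, limma adjusted p = 1.27e-12 and 1.57e-12).

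Within every group the members varied together, and the pattern followed the replicate numbers. Replicates 3 and 4 were the 2 lowest samples for 36 of 47 members in control, 39 in miR-144 and 43 in miR-451a TAMs, against 18.4%, 17.7% and 18.0% of all genes tested. They were so in all 3 groups for 31 of 47 members, against 3.33% of all genes. Replicate 4 alone was the lowest sample for 31, 42 and 41 members, against 25.3%, 22.3% and 24.5% of all genes. Replicate 5 was the highest for 15, 31 and 35, against 22.7%, 21.1% and 18.1% of all genes, but in control TAMs replicate 2 was the highest more often (22 members). The median deviation of the members from their group mean was -0.17, -0.25 and -0.24 on the log2 scale in replicate 4 of control, miR-144 and miR-451a, and 0.10, 0.19 and 0.23 in replicate 5 (0.13 in control replicate 2), while the median over all genes stayed between -0.02 and 0.02 in every sample. The median SD of a member was 0.17, 0.19 and 0.22, against 0.08, 0.09 and 0.09 over all genes. Of the 87 other pathway genes, 36, 42 and 48 showed replicates 3 and 4 as the 2 lowest samples, and 24 did so in all 3 groups. Some cell type markers moved with these samples too. Cd5l, a marker of Kupffer cells, was highest in replicates 3 and 4 of all 3 groups, with FPKM of 3.27, 3.21, 3.45, 3.65 and 3.40 in control, 19.7, 19.3, 44.9, 48.9 and 16.4 in miR-144 and 18.3, 17.6, 38.4, 46.1 and 15.3 in miR-451a samples, and so was the macrophage marker Mertk, with 38.8, 36.5, 45.6, 44.1 and 38.0 in control, 53.4, 58.2, 71.7, 70.3 and 52.6 in miR-144 and 59.4, 59.4, 69.3, 70.2 and 55.3 in miR-451a samples. Both ran opposite to the members, whereas the macrophage marker Lyz2 and the endothelial marker Kdr were lowest in replicates 3 and 4 of all 3 groups. The part of these markers in the pattern was not tested. The labels do not say whether a number marks a shared day, batch or cage. The approximate depth implied by the steps between low FPKM values was 15.7 to 31.0 M fragments per sample (M, 1000000), with miR-451a replicate 4 at 31.0 M and control replicates 1 and 4 both at 24.0 M, and its part in the pattern was not tested. Among samples of the same number 46 or 47 of 47 members were higher in miR-144 than in control TAMs, with median differences from 1.11 to 1.28. In miR-451a TAMs 45 to 47 were higher, with medians from 1.15 to 1.26. For the 44 members without overlap in each comparison this order was already fixed, so these counts do not test the part of the numbers.

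**Figure D5:**
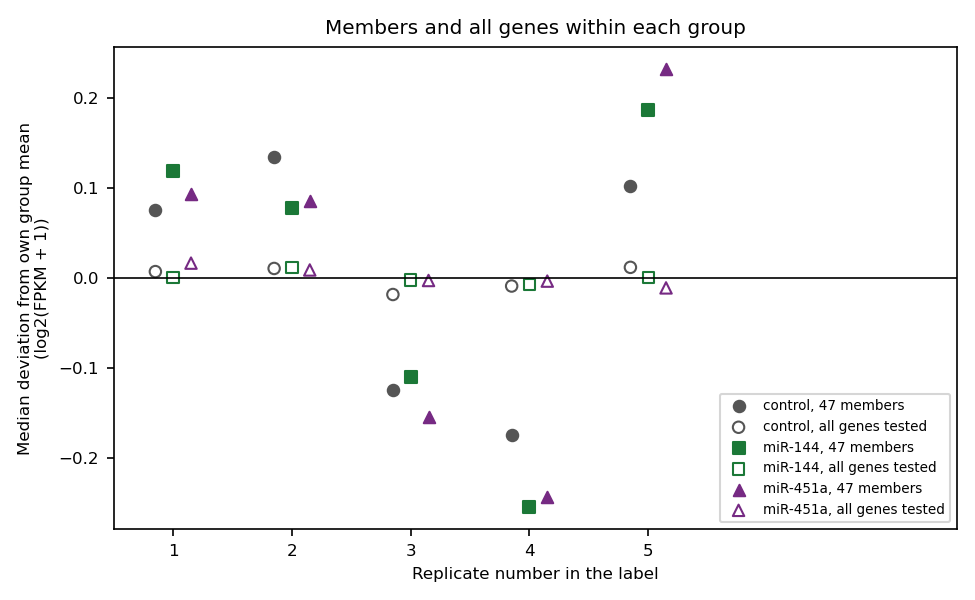
For each sample, the median deviation of the 47 members (filled) and of all 11419 genes tested (open) from the mean of its own group, on the log2(FPKM + 1) scale, against the replicate number in the label, by group (grey circles control, green squares miR-144, purple triangles miR-451a). Filled points lie below 0 at numbers 3 and 4 and above 0 at numbers 1, 2 and 5 in all 3 groups, and open points stay between -0.02 and 0.02.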

How the data were processed

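RNA-seq values of sorted TAMs were deposited as 1 table of FPKM per gene for 15 samples. Per the labels, FastQC 0.11.2, STAR and StringTie were used, with no role or order given, and the methods name an Illumina HiSeq sequencer. The genome build, annotation and strand setting are not given in the sources used here. FPKM deposited by the authors hold no counts, and the steps between low values implied 15.7 to 31.0 M fragments (M, 1000000) per sample (41.7 to 55.6% of low values lay on a step, against 10% by chance), so depth is approximate and intervals cover the spread of samples only. The level of 3 fragments uses this depth. No 2 samples of a group held identical values.

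Groups and replicate numbers came from the sample titles. Genes whose FPKM averaged 1 or more over the samples (11419) were tested as log2(FPKM + 1) with limma 3.58.1 in R 4.3.3, all 3 groups in 1 fit with an intensity trend, and p-values were adjusted by Benjamini-Hochberg over all of them, two-sided, at 0.05. The fit was tested on simulated data. A gene was called non-overlapping where all 5 values of 1 group lay beyond all 5 of the other. Members were matched by symbol, and 99.7% of gene IDs were found in GENCODE M21 (GRCm38), which gave coordinates and 50-base stretches shared between genes. Promoters came from RefSeq (GRCm38.p6).

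All 47 members were reported, with values in every sample for the largest rises and for the most expressed rising member of each role, and Lgals3bp and Usp18 were added after their values were seen. Ligands, receptors, JAKs, STATs, IRFs and sensors of the pathway were named, and others as stated, and some items are not reported here. The members and lists were chosen with earlier results of these data known. Alternatives were another pseudocount and filter, median centring, quantile normalization, TPM, a replicate block, no trend, fits of 2 groups, a fold threshold, and leaving out each sample.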

Additional observations from a re-analysis of the deposited data

Results flagged for a closer look

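Among 201 groups of 5 samples (67 genes, namely the members and 20 named pathway genes, in 3 groups) 5 had a sample whose gap to its nearest neighbour took up most of the range of the group, where chance gives about 1 in 20 groups, or 10.05. Oasl1 was 16.8 FPKM in miR-144 replicate 5 and 11.8 in the next sample. Ifi203 was 28.3 FPKM in miR-144 replicate 4 and 32.2 in the next sample. Irf8 stood apart in all 3 groups. It was 24.7 FPKM in control replicate 2 against 14.9 in the next sample, 42.4 in miR-144 replicate 4 against 25.5, and 41.4 in miR-451a replicate 4 against 25.1. Irf8 was thus highest in the replicate 4 samples of both miRNA groups, in which most members were lowest.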

How the results depend on the processing

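The counts of members called stayed at 46 higher and 0 lower in both comparisons when any single sample was left out, and at 0 between the miRNA groups. Members without overlap numbered 44 to 46 (miR-144) and 44 to 45 (miR-451a) when 1 sample was left out, which cannot lower this count. The median log2 fold changes then ran from 1.19 to 1.30 and from 1.13 to 1.24. Over the other alternatives the medians ran from 1.11 to 1.36 and from 1.03 to 1.30, and members called higher fell to 31 in each comparison only where a log2 fold change of at least 1 was required. That threshold also left 31 called pathway genes in each comparison, against 79 and 75 of the 87 tested. A minimum mean of 5 FPKM left out 3 members, where the minimum of 1 FPKM left out 0. Nmi lost its call in both comparisons under median centring (0.09 and 0.10) and quantile normalization (0.09 in both). Lgals3bp, never called, turned negative under median centring (-0.051 and -0.10), without control replicate 2 (-0.015 and -0.055), and in the miR-451a comparison without miR-451a replicate 1 (-0.010) or 5 (-0.048), its values ranging from -0.015 to 0.13 and from -0.055 to 0.20 as 1 sample was left out. With the replicate number as a block, 46 members were called higher in each comparison, 0 between the miRNA groups, and 81 and 78 pathway genes, with medians of 1.25 and 1.17. Samples of the same number shared some deviation over all genes (mean correlation 0.076, against -0.019 for different numbers, and 12 of 30 best matches were the own number), but 8 of 15 same-number pairs had a correlation over 0.1 (range -0.15 to 0.26), so the numbers were not taken to pair the samples. FPKM without counts limit the precision of genes near 0, such as the ligands.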
